A study of Homo sapiens with 24 samples.

Results

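The RNA of untreated SAS cells that carried the E79Q form of NRF2 was compared with that of untreated SAS cells with wild-type NRF2 (WT). SAS is an established human cell line from an oral squamous cell carcinoma. The comparison rests on 6 of the 24 libraries of the series, 3 labelled Nrf2-E79Q with the treatment Control and 3 labelled Nrf2-WT with the treatment Control, chosen by these labels and not by any measured value. The other 18 libraries belong to the same cell line and hold both genotypes, 3 libraries each, after radiation at 4 Gy, after CB-839, an inhibitor of glutamine metabolism, at 0.1 µM, and after both. The protocol has CB-839 or vehicle given for 24 h ahead of radiation, and does not describe the untreated cells apart from the label Control. How the E79Q cells were made and whether they stem from 1 clone are not stated in the labels. The series is about NFE2L2 mutations, radiation and myeloid cells in head and neck cancer, and this comparison asks how the genotypes differ without treatment. The text of the series describes 12 samples in 4 irradiated groups, while the labels hold 24 in 8.

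NRF2, encoded by NFE2L2, is a transcription factor that binds antioxidant response elements with small MAF proteins and raises genes for detoxification, glutathione, thioredoxin, NADPH and iron handling. KEAP1 grips NRF2 at a DLG and an ETGE motif and hands it to the CUL3 ubiquitin ligase for destruction by the proteasome, and electrophiles and oxidants loosen that grip. Changes in either motif are known from squamous carcinomas of the head and neck, lung and esophagus, and E79 is the first residue of ETGE. The coding sequence around it is shown because it is where the genotypes differ by label. It runs from codon 66 to codon 93 of the 605 codons of transcript NFE2L2-201 in the GENCODE reference on GRCh38, with codon 79 in capitals.
NFE2L2: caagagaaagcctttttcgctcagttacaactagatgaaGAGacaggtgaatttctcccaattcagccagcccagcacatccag
The capitals encode glutamic acid, and the 3 codons after them encode the T, G and E of the motif. Counts per gene do not show which allele was read.

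The 6 libraries held 17256034 to 18853517 counts each (14285084 to 23640197 over all 24), and 15956 genes were tested. Levels are CPM, the reads of a gene relative to a library size scaled by the trimmed mean of M-values (TMM). Log2 CPM correlated over genes (not independent points) with a Pearson r of at least 0.9892 between libraries of a group and at most 0.9836 between libraries of different groups. The labels do not say that replicates were separate cultures. P-values thus measure the spread between libraries of a group, estimated over all 24 libraries, and that spread may be technical. In bulk RNA, fewer cells of a type and less RNA per cell cannot be told apart. The GC content of genes correlated with their deviation from the mean of the group in library 1 of E79Q cells (r 0.53 over 8965 genes of at least 10 CPM). It ran the other way in libraries 2 and 3 (r -0.37 and -0.23). In WT cells r was 0.20, -0.12 and -0.08 in libraries 1, 2 and 3, the same signs by replicate number. Mitochondrial genes took 1.93%, 2.58% and 2.64% of the counts in E79Q cells, against 2.62%, 2.89% and 3.16% in WT cells. All 15 markers of squamous carcinoma cells had reads, with a summed level of 4497 to 4654 CPM in E79Q cells and 5943 to 5970 CPM in WT cells. Of 8 leukocyte markers 4 had no read in any of the 6 libraries (PTPRC, CD3E and HBB among them), and the 8 together came to 0.566 to 1.76 CPM in E79Q cells and 3.07 to 4.12 CPM in WT cells. Among 7 endothelial markers KDR and EMCN had no read, and the 7 together came to 1.82 to 2.56 CPM in E79Q cells and 2.75 to 4.06 CPM in WT cells. Among 8 melanocyte and neural markers SNAP25 had no read, and the 8 together came to 8.16 to 9.39 CPM in E79Q cells and 5.04 to 7.52 CPM in WT cells. The 8 fibroblast markers summed to 49.6 CPM in library 2 of E79Q cells and to 8.03 and 9.02 CPM in the others, against 7.33 to 8.67 CPM in WT cells. That library held 502 reads of COL1A1, 260 of COL1A2 and 67 of COL3A1, while COL3A1 had 0 reads in each of the other 5.

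In untreated E79Q cells 1535 genes were higher (9.62% of those tested) and 1614 were lower (10.1%) than in untreated WT cells, 19.7% in either direction. A gene is called higher or lower here when its adjusted p from edgeR's quasi-likelihood test is under 0.05, and it is said to rise or fall only then. Most calls were of modest size: 175 of those higher and 323 of those lower passed 2-fold. Against a change of 1.5-fold as the null, 113 genes were higher and 180 lower, so a call of a smaller size below speaks of a difference from 0. The CPM of the 3 E79Q libraries did not overlap those of the 3 WT libraries in 37.1% of all genes tested. Of the 3149 genes called, 3060 had no overlap, so a lack of overlap below adds little to a call. The median log2 fold change (E79Q over WT) of all genes was -0.00675, and the median of its absolute size was 0.183. These are the values that each gene list below is set beside. The lists were chosen with earlier results of these data known, so their counts and medians are descriptions and no tests. Some genes stand in several lists and are counted in each. Each size of a change, rise or fall below is a log2 fold change of E79Q over WT unless another scale is named, as are the medians of lists.

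**Figure D1:**
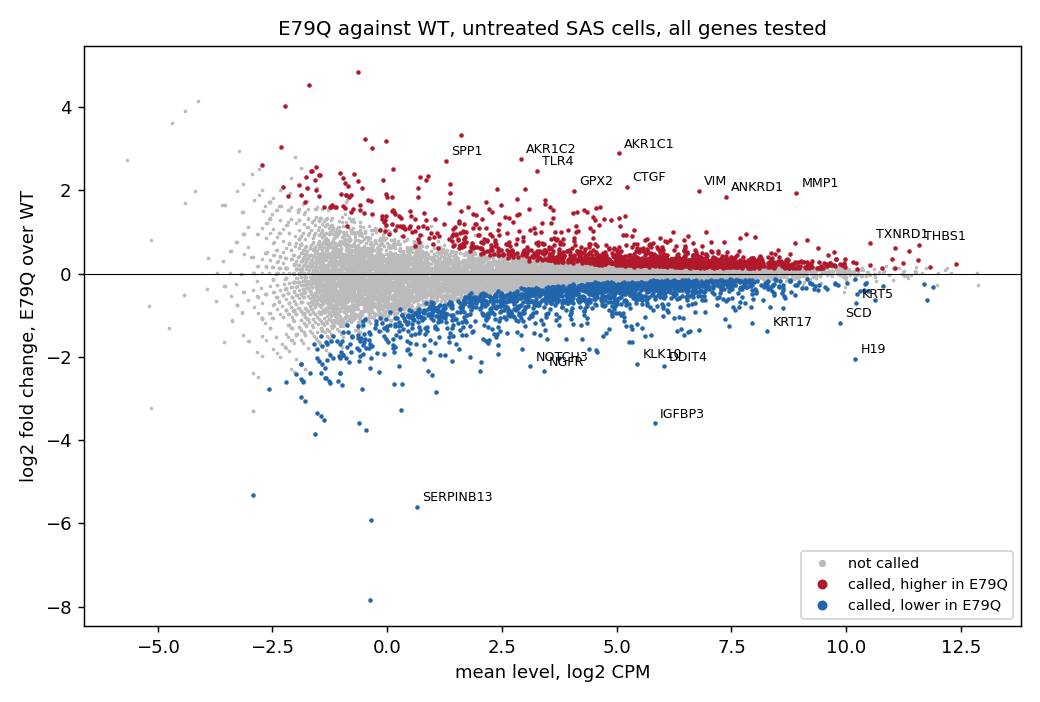
Log2 fold change of E79Q over WT (vertical) against mean level as log2 CPM (horizontal) for the 15956 genes tested in untreated SAS cells, with called genes in red (higher in E79Q) and blue (lower in E79Q). Called genes reach from weakly to highly expressed ones, and IGFBP3 and H19 stand out among well expressed genes that were lower.

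The genes with the largest rises encode enzymes, secreted proteins and receptors. Genes named for the largest changes or the smallest p over all rises or falls were picked among genes without overlap, as were the long noncoding RNAs. Their lack of overlap, here and below, was thus set by that choice. AKR1C1, an aldo-keto reductase that reduces carbonyls and steroids, had 61.8, 56.1 and 56.4 CPM in E79Q cells, against 6.49, 8.59 and 8.40 CPM in WT cells. SPP1, which encodes the secreted phosphoprotein osteopontin, had 4.35, 4.00 and 4.30 CPM in E79Q cells, against 0.659, 0.688 and 0.567 CPM in WT cells. TLR4, the receptor for lipopolysaccharide, had 16.4, 17.6 and 14.7 CPM in E79Q cells, against 2.58, 2.46 and 3.74 CPM in WT cells. In none of these 3 genes did a library of 1 genotype reach the range of the other, and the log2 fold changes were 2.89 (SE 0.10, adjusted p = 1.01e-17), 2.71 (SE 0.23, adjusted p = 6.08e-10) and 2.47 (SE 0.17, adjusted p = 2.11e-11). EDN1, the precursor of the vasoconstrictor endothelin, had 14.1, 12.8 and 11.8 CPM in E79Q cells, against 3.41, 2.41 and 3.57 CPM in WT cells. TOX, an HMG-box nuclear factor best known in T cells, had 8.81, 7.93 and 8.77 CPM in E79Q cells, against 1.98, 1.95 and 2.27 CPM in WT cells. EDN1 was 4.10-fold and TOX 4.11-fold higher in E79Q cells, with no overlap. The further large rises by log2 fold change were HKDC1, a hexokinase-like enzyme (2.35), SCG5, a neuroendocrine chaperone (2.33), CYP2B6, a drug-metabolizing cytochrome P450 (2.24), and TSPAN7, a tetraspanin (2.04). LPXN, a paxillin-family adaptor, reached 39.3, 35.7 and 37.1 CPM in E79Q cells, against 11.7, 13.2 and 12.4 CPM in WT cells. HMGA2, an architectural chromatin factor of embryonic and tumour cells, had 727, 717 and 722 CPM in E79Q cells, against 406, 411 and 414 CPM in WT cells. PRSS23, a secreted serine protease, had 268, 266 and 261 CPM in E79Q cells, against 147, 147 and 148 CPM in WT cells. These last 3 had among the smallest p-values of all rises, with log2 fold changes of 1.59 (SE 0.080, adjusted p = 2.25e-14), 0.82 (SE 0.047, adjusted p = 3.62e-13) and 0.85 (SE 0.040, adjusted p = 7.69e-15).

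Next to SERPINB13, which had 0 to 2 reads in E79Q cells, the largest fall of protein-coding genes with at least 2 CPM in a group was that of IGFBP3, which binds insulin-like growth factors, with 7.51, 8.82 and 9.62 CPM in E79Q cells, against 109, 103 and 103 CPM in WT cells. That is 12.1-fold lower in E79Q cells, with no overlap between the genotypes. NGFR, the low-affinity neurotrophin receptor found on basal squamous cells, had 3.27, 3.82 and 3.40 CPM in E79Q cells, against 20.1, 17.1 and 16 CPM in WT cells. HCAR2, the receptor for hydroxybutyrate and niacin, had 1.252, 1.12 and 1.58 CPM in E79Q cells, against 6.71, 6.93 and 6.64 CPM in WT cells, and its neighbour HCAR3 had 1.63, 1.47 and 1.47 CPM in E79Q cells, against 5.94, 7.33 and 6.81 CPM in WT cells. The 2 receptor genes are close paralogs, so reads can be shared or lost between them. Log2 fold changes were -3.60 (SE 0.10, adjusted p = 7.93e-20), -2.34 (SE 0.19, adjusted p = 4.57e-10), -2.35 (SE 0.25, adjusted p = 5.74e-08) and -2.13 (SE 0.29, adjusted p = 3.32e-06), and the libraries of the genotypes stood apart in each. BCAM, a laminin-binding adhesion molecule, had 54.8, 49.6 and 50.6 CPM in E79Q cells, against 146, 136 and 130.2 CPM in WT cells. SYT12, a synaptotagmin, had 64.9, 59.7 and 63.2 CPM in E79Q cells, against 162, 159 and 157 CPM in WT cells. NANOS1, an RNA-binding protein of germ cells, had 41.6, 44.4 and 53.7 CPM in E79Q cells, against 143, 126 and 120.1 CPM in WT cells. These fell by far more than the spread of the libraries, with log2 fold changes of -1.41 (SE 0.062, adjusted p = 1.03e-15), -1.35 (SE 0.071, adjusted p = 7.01e-14) and -1.48 (SE 0.079, adjusted p = 8.76e-14). Further falls were those of TRPV6, an epithelial calcium channel (-3.27), SAA1, an acute-phase protein (-2.35), ALDH3B2, an aldehyde dehydrogenase (-2.44), ALPP, placental alkaline phosphatase (-2.11), KCP, a modulator of BMP signals (-2.05), and CCDC71L (-1.39).

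**Figure D2:**
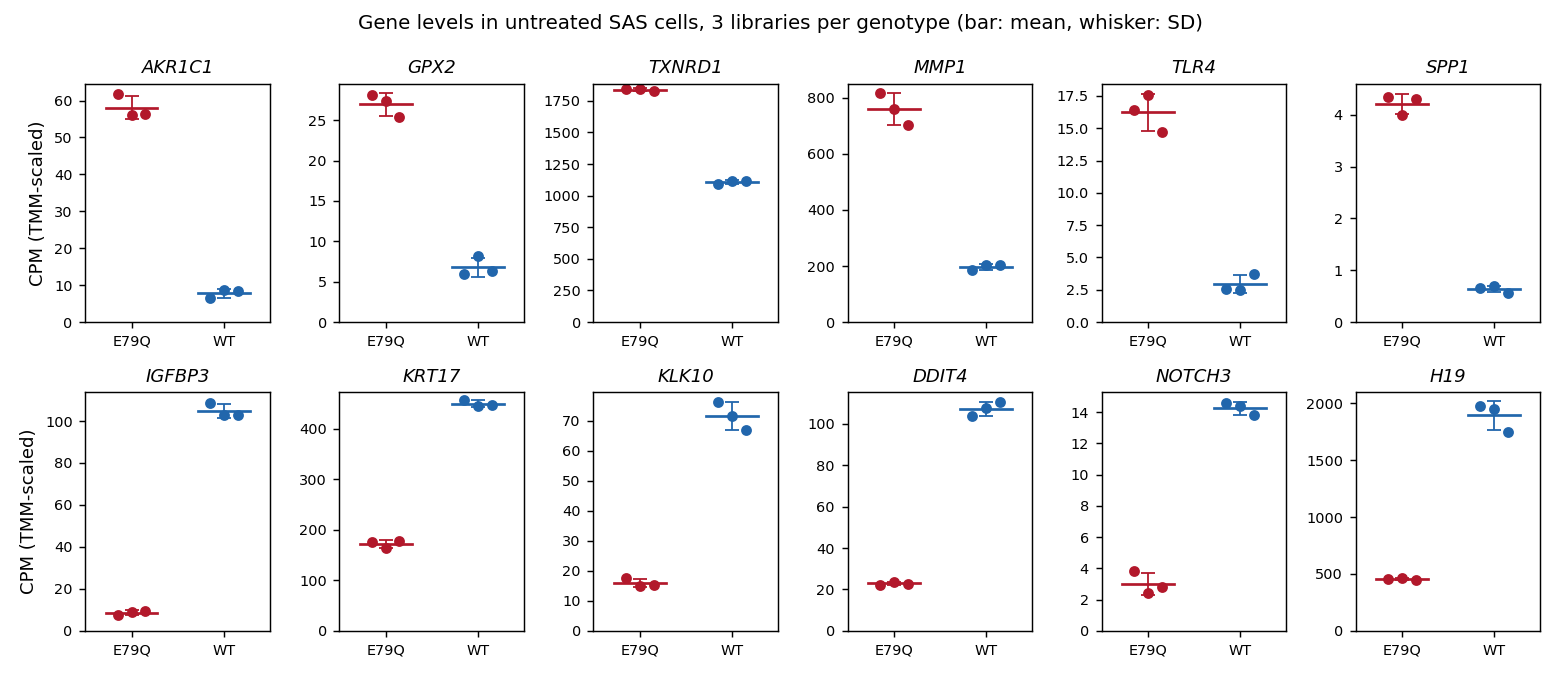
CPM of 12 genes in each of the 3 untreated E79Q libraries (red, left) and 3 untreated WT libraries (blue, right), on linear axes that start at 0, with the mean as a bar and the SD as a whisker. No E79Q library enters the range of the WT libraries in any of the 12, most of which were picked among genes without overlap. The genes of the upper row were higher in E79Q cells and those of the lower row lower.

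Among 14 tested regulators and partners of NRF2, 3 were higher and 1 lower (median 0.12). NFE2L2 RNA itself was lower, with 132, 137 and 135 CPM in E79Q cells, against 165, 173 and 167 CPM in WT cells. KEAP1, its inhibitor, was higher, with 108, 99.3 and 109 CPM in E79Q cells, against 73.3, 69.9 and 69.4 CPM in WT cells. SQSTM1, the autophagy receptor p62 that can sequester KEAP1 and is itself a target of NRF2, had 430.4, 401 and 392 CPM in E79Q cells, against 310.5, 290.1 and 279 CPM in WT cells. In these 3 genes the genotypes did not overlap, at log2 fold changes of -0.33 (SE 0.065, adjusted p = 0.000496), 0.57 (SE 0.067, adjusted p = 2.61e-07) and 0.48 (SE 0.062, adjusted p = 1.94e-06). MAFG, a small MAF partner of NRF2, had 126, 119 and 123 CPM in E79Q cells, against 97.9, 102 and 98.9 CPM in WT cells, a rise of 0.30 (SE 0.053, adjusted p = 0.000108). The ligase parts CUL3 (0.09) and RBX1 (0.06), the kinase GSK3B (0.00), the adaptor BTRC (0.09) and the repressor BACH1 (-0.06) did not pass. On GRCh38 NFE2L2 (ENSG00000116044) spans chromosome 2 at 177227595 to 177392697 and KEAP1 (ENSG00000079999) spans chromosome 19 at 10486120 to 10503741. Both are protein-coding.

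Aldo-keto reductases, which reduce aldehydes and ketones with NADPH, had the largest median of the 9 NRF2-related lists, 1.42, with 5 of 7 tested higher and 1 lower. The 3 neighbours on chromosome 10 rose together. AKR1C2, which inactivates dihydrotestosterone, had 14.0, 12.3 and 13.1 CPM in E79Q cells, against 2.03, 1.49 and 2.27 CPM in WT cells, and AKR1C3, which makes androgens and prostaglandins, had 18.1, 15.2 and 16.2 CPM in E79Q cells, against 5.77, 4.76 and 4.99 CPM in WT cells. AKR1B10, which reduces retinal and lipid aldehydes, had 4.79, 5.995 and 5.09 CPM in E79Q cells, against 2.58, 1.89 and 1.42 CPM in WT cells. Groups did not overlap, and the log2 fold changes were 2.76 (SE 0.16, adjusted p = 4.25e-13), 1.67 (SE 0.14, adjusted p = 4.69e-10) and 1.42 (SE 0.20, adjusted p = 4.05e-06). The genes lie at chromosome 10 at 4963253 to 4983283 (AKR1C1), chromosome 10 at 4987400 to 5018031 (AKR1C2) and chromosome 10 at 5035354 to 5107686 (AKR1C3) on GRCh38. They are near copies of each other, so the counts of each may hold or miss reads of the others. AKR1A1, a widely expressed aldehyde reductase, was lower (-0.27), AKR1B1 was higher by a small step (0.18) that was lost under several alternatives (adjusted p = 0.0636 to 0.175), and AKR7A2 did not pass (-0.04).

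Other detoxifying enzymes moved both ways. Of 21 quinone, carbonyl and aldehyde enzymes 5 were higher and 7 lower (median -0.07); 4 were called lower without library 3 of WT cells or library 1 of E79Q cells. The quinone reductase NQO1 had 612, 574 and 574 CPM in E79Q cells, against 351, 357 and 354 CPM in WT cells. CYP4F11, a fatty acid hydroxylase, had 18.8, 18.9 and 17.8 CPM in E79Q cells, against 11.5, 12.6 and 13.6 CPM in WT cells. EPHX1, an epoxide hydrolase of the microsomes, had 29.1, 29.6 and 30.2 CPM in E79Q cells, against 20.8, 23.1 and 21.7 CPM in WT cells. Each stood above the WT range, with log2 fold changes of 0.73 (SE 0.066, adjusted p = 2.36e-09), 0.56 (SE 0.088, adjusted p = 2.72e-05) and 0.44 (SE 0.092, adjusted p = 0.000869). On the lower side, ALDH1A3, which makes retinoic acid, had 24.9, 24.5 and 26.8 CPM in E79Q cells, against 37.8, 35.5 and 36.1 CPM in WT cells, and ALDH3B1, a membrane aldehyde dehydrogenase, had 10.8, 10.8 and 10.3 CPM in E79Q cells, against 14.9, 14.4 and 16.4 CPM in WT cells. Their log2 fold changes were -0.52 (SE 0.071, adjusted p = 3.63e-06) and -0.52 (SE 0.094, adjusted p = 0.000172). Conjugation enzymes hardly took part: of 16 tested UGDH, which makes UDP-glucuronate, was higher (0.39), GSTK1 was lower (-0.35), and the abundant GSTP1 (0.08) and GSTO1 (0.10) did not pass (median 0.00). Of 8 ABC efflux pumps 3 were higher and 0 lower (median 0.13). ABCC2, an exporter of glutathione conjugates, had 3.37, 3.64 and 4.47 CPM in E79Q cells, against 1.54, 1.49 and 2.27 CPM in WT cells and ABCG2, a drug pump, had 6.86, 8.29 and 7.08 CPM in E79Q cells, against 4.51, 4.99 and 4.14 CPM in WT cells. These rises were 1.11 (SE 0.21, adjusted p = 0.000288) and 0.70 (SE 0.13, adjusted p = 0.00033), while ABCC1 did not pass (0.05).

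Glutathione genes showed the same mixture, with 7 of 21 higher and 4 lower (median -0.02). GPX2, a glutathione peroxidase of epithelia, had 28.1, 27.4 and 25.4 CPM in E79Q cells, against 5.94, 8.14 and 6.30 CPM in WT cells. GCLC, the catalytic subunit of the first enzyme of glutathione synthesis, had 67.9, 74.7 and 71.6 CPM in E79Q cells, against 46.6, 48.7 and 42.8 CPM in WT cells, whereas its modifier GCLM had 329, 316 and 297 CPM in E79Q cells, against 307, 308 and 285 CPM in WT cells. The GPX2 and GCLC libraries of the genotypes did not overlap and those of GCLM did. SLC7A11, which imports cystine, had 410.2, 453 and 445 CPM in E79Q cells, against 299, 284 and 296 CPM in WT cells. Log2 fold changes were 1.99 (SE 0.14, adjusted p = 1.43e-11) for GPX2, 0.63 (SE 0.071, adjusted p = 1.34e-07) for GCLC and 0.57 (SE 0.12, adjusted p = 0.000665) for SLC7A11, while GCLM did not pass (0.06, adjusted p = 0.434). Falls were those of CHAC1, which degrades glutathione (-0.69), GPX4, which protects membranes from lipid peroxides (-0.28), SLC3A2, the partner chain of SLC7A11 (-0.22), and CBS, the first enzyme of transsulfuration (-1.05), whose call was lost without library 1 of WT cells or library 3 of E79Q cells (adjusted p = 0.136 and 0.098).

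In the thioredoxin and peroxiredoxin system 5 of 16 were higher and 2 lower (median 0.04). OSGIN1, an oxidative stress-induced growth inhibitor, had 30.6, 27.9 and 27.96 CPM in E79Q cells, against 8.57, 10.6 and 10.8 CPM in WT cells. SRXN1, which repairs oxidized peroxiredoxins, had 27.9, 33.3 and 25.4 CPM in E79Q cells, against 15.4, 16.7 and 15.6 CPM in WT cells. TXNRD1, thioredoxin reductase of the cytosol, had 1841, 1846 and 1827 CPM in E79Q cells, against 1092, 1119 and 1116 CPM in WT cells. The 3 rises were 1.53 (SE 0.10, adjusted p = 4.77e-12), 0.86 (SE 0.10, adjusted p = 3.91e-07) and 0.73 (SE 0.045, adjusted p = 1.85e-12), without overlap. TXNIP, which binds and inhibits thioredoxin and responds to glucose, fell (-0.62), as did SOD2, the mitochondrial superoxide dismutase (-0.40). Of 17 NADPH and pentose phosphate genes 5 were higher and 3 lower (median 0.10). PGD, which makes NADPH in the pentose phosphate pathway, had 429, 398 and 418 CPM in E79Q cells, against 344, 356 and 345 CPM in WT cells. IDH1, which makes NADPH from isocitrate in the cytosol, had 79.7, 84.8 and 87.3 CPM in E79Q cells, against 162, 160.3 and 153 CPM in WT cells. PGD rose by a small step and IDH1 fell, with log2 fold changes of 0.25 (SE 0.060, adjusted p = 0.00274) and -0.92 (SE 0.054, adjusted p = 6.85e-13). In the heme and iron list 4 of 16 were higher and 1 lower (median -0.01). FTL, the light chain of ferritin, had 2749, 2407 and 2597 CPM in E79Q cells, against 1716, 1732 and 1628 CPM in WT cells and TFRC, the transferrin receptor, had 491, 536 and 533 CPM in E79Q cells, against 416, 420.1 and 440.3 CPM in WT cells, while ferritin heavy chain FTH1 did not pass (0.13). The 2 rises were 0.61 (SE 0.076, adjusted p = 8.88e-07) and 0.29 (SE 0.072, adjusted p = 0.00443). LCN2, which binds iron-loaded siderophores, had 1, 0 and 4 reads in E79Q cells, against 13, 24 and 27 reads in WT cells.

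The antioxidant response element was searched for as TGACNNNGC on both strands in the 300 bases around each gene start (250 before to 50 after) of RefSeq on GRCh38.p14. Promoters were in the table for 33 of the 38 genes called higher in the 9 NRF2-related lists, and 6 of the 33 (18.2%) held a match: ABCC4, CYP4F11, GPX2, ME1, PGD and TXNRD1. The share was 15% (1663 of 11100) for all genes tested that had a promoter in the table, 17.1% for all called higher and 12.3% for all called lower. The stretches of 3 genes are shown, 5′ to 3′ on the strand of the gene with the match in capitals, because their genes span the roles above.
TXNRD1: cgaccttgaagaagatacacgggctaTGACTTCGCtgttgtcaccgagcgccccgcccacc
GPX2: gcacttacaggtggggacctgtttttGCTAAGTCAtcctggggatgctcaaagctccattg
ME1: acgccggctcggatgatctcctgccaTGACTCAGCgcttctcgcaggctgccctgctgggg
They lie at chr12:104215654-104215714 on the plus strand (TXNRD1), chr14:64942833-64942893 on the minus strand (GPX2) and chr6:83431154-83431214 on the minus strand (ME1). In GPX2 the match is read on the opposite strand, and in ME1 it overlaps a TGANTCA motif of AP-1. A match is a description of these letters and no measure of binding. ME1, the cytosolic malic enzyme that makes NADPH, had 67.8, 68.0 and 68.7 CPM in E79Q cells, against 59.6, 60.3 and 59.97 CPM in WT cells, a change of 0.18 (SE 0.063, adjusted p = 0.0384). It was picked for its match, after its values were seen.

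Keratins, the intermediate filaments of epithelia, were lower as a group: 10 of 18 tested fell, 0 rose and the median was -0.68. The simple-epithelial pair KRT8 and KRT18 took part. KRT8 had 2864, 2586 and 2747 CPM in E79Q cells, against 4271, 4302 and 4156 CPM in WT cells, and KRT18 had 1318, 1158 and 1211 CPM in E79Q cells, against 1909, 2015 and 1849 CPM in WT cells. KRT5, the basal-layer keratin, had 905, 879.7 and 934 CPM in E79Q cells, against 1488, 1484 and 1484 CPM in WT cells, and its partner KRT14 had 13.9, 14.0 and 13.3 CPM in E79Q cells, against 38.5, 43.0 and 34.4 CPM in WT cells. KRT17, a keratin of wounded and tumour epithelium, had 176, 164 and 178 CPM in E79Q cells, against 458, 445 and 448 CPM in WT cells, and KRT6A, which pairs with it, had 8.81, 6.35 and 7.42 CPM in E79Q cells, against 22.1, 21.8 and 23.03 CPM in WT cells. All 6 had separate ranges. KRT14 and KRT6A fell, at -1.49 (SE 0.11, adjusted p = 4.83e-11) and -1.56 (SE 0.17, adjusted p = 7.42e-08), as did KRT17, at -1.38 (SE 0.076, adjusted p = 1.78e-13). For KRT5, KRT18 and KRT8 the changes were -0.71 (SE 0.061, adjusted p = 8.57e-10), -0.65 (SE 0.063, adjusted p = 9.68e-09) and -0.64 (SE 0.066, adjusted p = 3.33e-08). Per length (TPM), KRT8 averaged 1492 in E79Q cells and 2333 in WT cells, KRT5 793 in E79Q cells and 1309 in WT cells, and KRT14 22.7 in E79Q cells and 64.1 in WT cells. KRT7, with 2520 ± 160.2 CPM in E79Q cells and 2708 ± 77.7 CPM in WT cells (mean ± SD, n = 3 each), did not pass (-0.10). Keratins share sequence with each other and with pseudogenes, which can move reads between them.

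All 7 tested kallikreins, secreted serine proteases that act in the shedding of the outer epidermis, were lower (median -1.60). They lie side by side on chromosome 19, KLK5 at chromosome 19 at 50943303 to 50953093 and KLK13 at chromosome 19 at 51056206 to 51065114 on GRCh38. KLK10 had 17.6, 15.1 and 15.1 CPM in E79Q cells, against 76.3, 71.5 and 66.8 CPM in WT cells. KLK13 had 8.60, 11.3 and 8.32 CPM in E79Q cells, against 31.8, 35.5 and 31.0 CPM in WT cells. KLK5, which starts the protease cascade of the cornified layer, had 52.0, 47.9 and 48.5 CPM in E79Q cells, against 102, 105 and 102 CPM in WT cells, and KLK6 had 180.2, 168 and 165 CPM in E79Q cells, against 257, 260.0 and 238 CPM in WT cells. Not 1 library crossed over, and the changes were -2.17 (SE 0.085, adjusted p = 7.8e-17), -1.80 (SE 0.13, adjusted p = 2.23e-11), -1.06 (SE 0.075, adjusted p = 2.81e-11) and -0.56 (SE 0.061, adjusted p = 7.7e-08). KLK8 and KLK7 fell, at -1.60 and -1.14, and AC011473.4, an annotated protein-coding gene that overlaps KLK8, at -2.84. The reads of such overlapping genes can be shared or left out. KLK11 was at 6, 1 and 0 reads in E79Q cells, against 10, 14 and 9 reads in WT cells, and its call was lost in turn without library 2 of WT cells, 2 of E79Q cells or 3 of E79Q cells (adjusted p = 0.094 to 0.122).

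Of 15 cornified envelope genes 5 were lower and 0 higher (median -0.36). Among genes with at least 1 CPM in 12 libraries, 2 of the list were called lower. The 3 largest falls were those of serpins of squamous epithelium, neighbours on chromosome 18. SERPINB13, which inhibits lysosomal cysteine proteases, had 0, 2 and 1 reads in E79Q cells, against 61, 45 and 58 reads in WT cells. SERPINB4 had 1, 0 and 0 reads in E79Q cells, against 19, 27 and 36 reads in WT cells, and its near copy SERPINB3 had 0, 3 and 2 reads in E79Q cells, against 33, 21 and 19 reads in WT cells. The rate in WT cells was 54.4 times that in E79Q cells for SERPINB13 (exact 95% interval 18.3 to 267, for counting error only), 14.5 times for SERPINB3 (5.95 to 46.1) and 81.7 times for SERPINB4 (14.3 to 3.26e+03). Further along the same serpin cluster SERPINB2, the plasminogen activator inhibitor type 2, was higher in E79Q cells, with 536, 511 and 493 CPM in E79Q cells, against 348, 387 and 377 CPM in WT cells and a change of 0.47 (SE 0.056, adjusted p = 3.88e-07). The plakin PPL fell (-0.47), and involucrin (IVL) did not pass (-0.23). Among 11 S100 proteins 3 were lower and 0 higher (median -0.18). S100A14 had 100, 99.5 and 115 CPM in E79Q cells, against 209.7, 217 and 241 CPM in WT cells. S100A9, a subunit of calprotectin, had 5.06, 5.94 and 4.98 CPM in E79Q cells, against 16.2, 13.1 and 15.03 CPM in WT cells. They fell, at -1.09 (SE 0.066, adjusted p = 1.06e-12) and -1.47 (SE 0.15, adjusted p = 4.77e-08), without overlap.

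**Figure D3:**
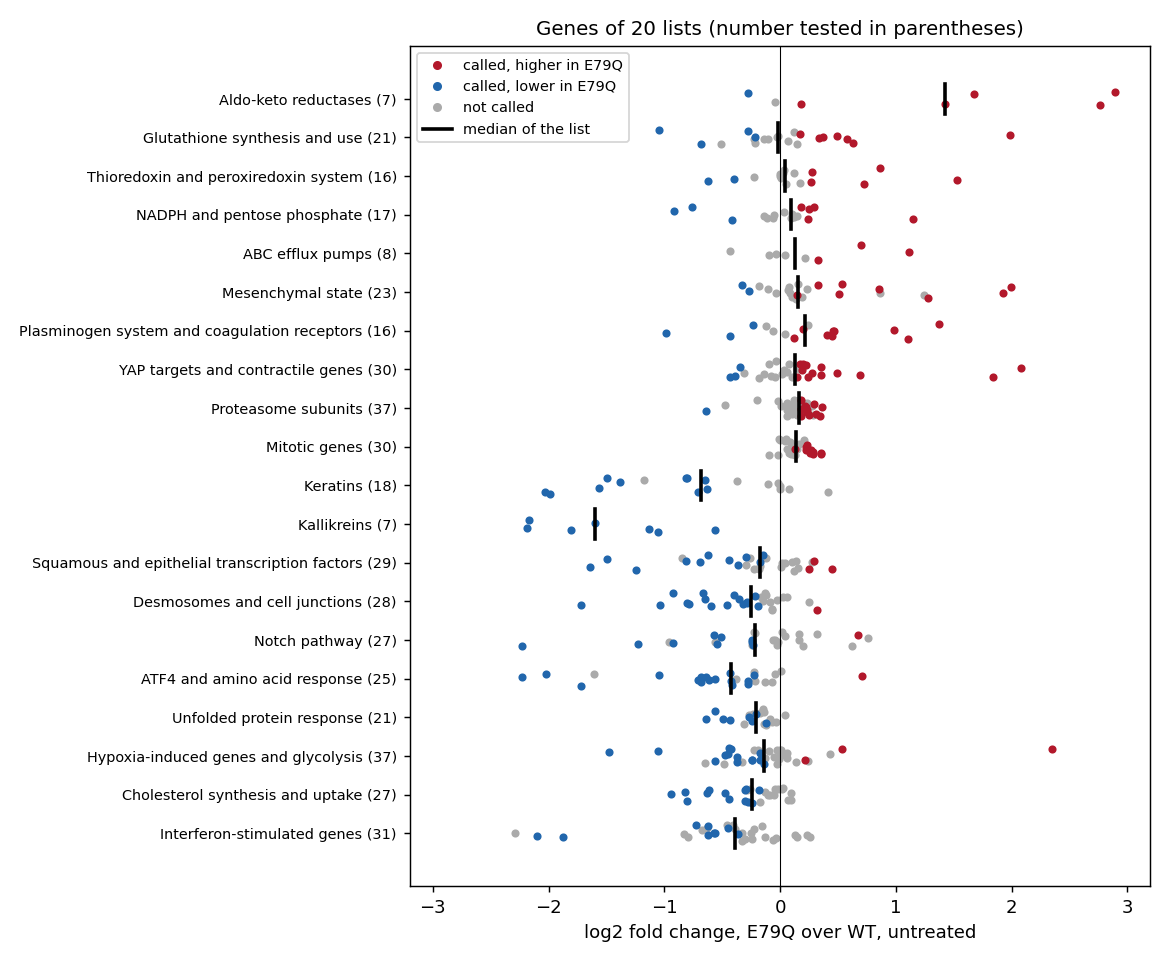
Log2 fold change of E79Q over WT in untreated cells (horizontal) for every tested gene of 20 lists (vertical, number tested in parentheses), red where called higher, blue where called lower and grey where not called, with the median of each list as a black bar. The medians run from 1.42 for aldo-keto reductases to -1.60 for kallikreins, and most lists hold genes that were not called.

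Junction genes and factors of epithelial identity were lower as well. Of 28 desmosome and junction genes 16 fell and 1 rose (median -0.25). E-cadherin, CDH1, had 69.0, 70.9 and 75.2 CPM in E79Q cells, against 136, 142 and 132 CPM in WT cells. Plakoglobin, JUP, which links cadherins to the cytoskeleton, had 242, 235 and 230.5 CPM in E79Q cells, against 426, 414 and 394 CPM in WT cells. CLDN7, a claudin of tight junctions, had 2.50, 2.23 and 2.66 CPM in E79Q cells, against 7.53, 8.65 and 8.23 CPM in WT cells. The log2 fold changes of -0.93 (SE 0.054, adjusted p = 4.58e-13), -0.80 (SE 0.060, adjusted p = 6.72e-11) and -1.72 (SE 0.17, adjusted p = 1.54e-08) were each without overlap, and CLDN4 was the 1 gene that rose (0.32). Of 29 squamous and epithelial transcription factors 11 fell and 3 rose (median -0.18). ELF3, an ETS factor of epithelial cells, had 17.3, 18.9 and 19.9 CPM in E79Q cells, against 60.02, 56.1 and 58.3 CPM in WT cells, and its relative EHF had 21.98, 22.7 and 21.0 CPM in E79Q cells, against 51.0, 51.6 and 53.4 CPM in WT cells. TP63, the master factor of basal squamous cells, had 188, 182 and 183 CPM in E79Q cells, against 237, 239 and 236 CPM in WT cells. ESRP1, which sets epithelial splicing, had 123, 125 and 131 CPM in E79Q cells, against 199, 192 and 192 CPM in WT cells. Their log2 fold changes were -1.64 (SE 0.087, adjusted p = 8.76e-14), -1.25 (SE 0.12, adjusted p = 3.99e-09), -0.36 (SE 0.048, adjusted p = 2.3e-06) and -0.62 (SE 0.053, adjusted p = 9.3e-10), while SOX9 (0.45) and RUNX1 (0.25) rose. In the Notch pathway, which drives squamous cells to differentiate, 9 of 27 fell and 1 rose (median -0.22). NOTCH3 had 3.81, 2.41 and 2.83 CPM in E79Q cells, against 14.6, 14.4 and 13.8 CPM in WT cells. The ligand JAG2 had 329.7, 326 and 318 CPM in E79Q cells, against 485, 470.1 and 469.6 CPM in WT cells, and the ligand JAG1 had 108, 114 and 108 CPM in E79Q cells, against 69.0, 67.0 and 71.1 CPM in WT cells. NOTCH3 and JAG2 fell, at -2.23 (SE 0.16, adjusted p = 2.81e-11) and -0.55 (SE 0.054, adjusted p = 1.25e-08), and JAG1 rose, at 0.67 (SE 0.051, adjusted p = 8.35e-11), each by more than the spread of the libraries.

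Genes of the mesenchymal state moved in the opposite direction in 8 of 23 cases, and 2 fell (median 0.15). VIM, the intermediate filament vimentin, had 181, 178 and 169.8 CPM in E79Q cells, against 43.6, 46.9 and 42.3 CPM in WT cells. ZEB1, a repressor of E-cadherin, had 3.43, 4.29 and 4.58 CPM in E79Q cells, against 1.04, 0.917 and 1.248 CPM in WT cells. CDH2, N-cadherin, had 75.3, 77.4 and 83.7 CPM in E79Q cells, against 43.0, 44.1 and 43.7 CPM in WT cells. Each stood above the WT range, with log2 fold changes of 1.99 (SE 0.074, adjusted p = 2.65e-17), 1.93 (SE 0.22, adjusted p = 1.76e-07) and 0.85 (SE 0.076, adjusted p = 2.13e-09). SNAI2, another repressor of epithelial genes, had 75.8, 70.5 and 71.1 CPM in E79Q cells, against 50.3, 50.8 and 51.3 CPM in WT cells, a rise of 0.51 (SE 0.057, adjusted p = 1.24e-07). The matrix proteins fibronectin, FN1 (-0.33), and SPARC (-0.27) fell. Library 2 of E79Q cells, which held reads of fibroblast collagens, lay between the other E79Q libraries in VIM, ZEB1 and CDH2. It was the lowest E79Q library in SNAI2 and the highest in COL13A1 and COL5A1, given below. Whether other cells had a part in these rises was not tested.

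Matrix proteases and the plasminogen system rose in part. Of 14 matrix metalloproteinases 4 rose and 2 fell (median 0.13). MMP1, the interstitial collagenase, had 819, 760.5 and 702 CPM in E79Q cells, against 185, 203 and 205 CPM in WT cells. MMP10 and MMP3 are stromelysins whose genes neighbour MMP1 on chromosome 11. MMP10 had 1.52, 1.998 and 2.04 CPM in E79Q cells, against 0.110, 0.458 and 0.397 CPM in WT cells, and MMP3 had 7.95, 5.23 and 8.26 CPM in E79Q cells, against 3.46, 3.21 and 3.69 CPM in WT cells. These groups did not overlap, with log2 fold changes of 1.94 (SE 0.055, adjusted p = 7.93e-20), 2.51 (SE 0.36, adjusted p = 9.12e-06) and 1.05 (SE 0.15, adjusted p = 7.17e-06), whereas MMP12, in the same cluster, fell (-1.03), as did MMP15 (-0.81). Of 16 genes of the plasminogen system and coagulation receptors 9 rose and 3 fell (median 0.22). PLAU, the urokinase, had 179.5, 164 and 148 CPM in E79Q cells, against 78.3, 81.3 and 88.3 CPM in WT cells. SERPINE2, which inhibits thrombin and urokinase, had 32.0, 36.9 and 28.4 CPM in E79Q cells, against 12.7, 13.7 and 11.2 CPM in WT cells. F2RL1, the receptor PAR2, had 235, 229.5 and 222 CPM in E79Q cells, against 166, 168 and 166 CPM in WT cells. The rises were 0.99 (SE 0.066, adjusted p = 6.38e-12), 1.37 (SE 0.092, adjusted p = 9.06e-12) and 0.46 (SE 0.041, adjusted p = 1.8e-09). THBD, thrombomodulin, had 13.6, 11.8 and 13.8 CPM in E79Q cells, against 26.4, 24.0 and 27.1 CPM in WT cells, and F3, tissue factor, had 1053, 1083 and 1074 CPM in E79Q cells, against 1422, 1432 and 1467 CPM in WT cells. Both fell, at -0.99 (SE 0.093, adjusted p = 5.52e-09) and -0.43 (SE 0.039, adjusted p = 3.04e-09). Among ADAM proteases and inhibitors of metalloproteinases 4 of 18 rose and 3 fell (median 0.13), with ADAM12 (1.10) and ADAMTS1 (0.74) up and TIMP3 (-0.23) down.

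The cytoskeletal and YAP-responsive list had 13 of 30 higher and 3 lower (median 0.12). CTGF, a matricellular protein, had 64.4, 59.5 and 56.5 CPM in E79Q cells, against 13.6, 14.7 and 14.2 CPM in WT cells. ANKRD1, a nuclear ankyrin protein and common reporter of YAP activity, had 256, 261 and 264 CPM in E79Q cells, against 64.0, 74.9 and 78.9 CPM in WT cells. THBS1, thrombospondin 1, had 3758, 3855 and 3751 CPM in E79Q cells, against 2354, 2308 and 2398 CPM in WT cells. No E79Q library fell into the WT range, and the rises were 2.08 (SE 0.068, adjusted p = 1.82e-18), 1.84 (SE 0.072, adjusted p = 7.8e-17) and 0.69 (SE 0.037, adjusted p = 8.76e-14). FLNA, an actin crosslinker, had 2415, 2211 and 2231 CPM in E79Q cells, against 1843, 1706 and 1832 CPM in WT cells, a rise of 0.35 (SE 0.052, adjusted p = 1.21e-05). The 3 genes of the list that fell were AMOTL2, an angiomotin that also holds YAP at junctions (-0.39), NUAK2 (-0.35) and F3 (-0.43).

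Basement membrane genes split by chain. Of 11 laminins 5 rose and 4 fell (median -0.03). LAMA3 and LAMB3 encode chains of a laminin that anchors basal keratinocytes. LAMA3 had 325, 341 and 339.9 CPM in E79Q cells, against 172, 179 and 195 CPM in WT cells. LAMB3 had 1042, 986 and 918 CPM in E79Q cells, against 757, 762 and 802 CPM in WT cells. The rise of LAMA3 was 0.88 (SE 0.076, adjusted p = 1e-09) and that of LAMB3 0.34 (SE 0.047, adjusted p = 3.78e-06), without overlap. LAMA5, the alpha chain of laminin-511, had 329, 326 and 325 CPM in E79Q cells, against 518, 447 and 513 CPM in WT cells, and LAMC1, the gamma chain it shares with other laminins, had 443, 473 and 483 CPM in E79Q cells, against 608, 557 and 600.1 CPM in WT cells. Those fell, at -0.59 (SE 0.060, adjusted p = 2.32e-08) and -0.34 (SE 0.047, adjusted p = 5.03e-06). Integrins, the receptors for laminin and collagen, had 2 of 20 higher and 5 lower (median 0.02), with ITGB5 up (0.90) and the laminin receptor chains ITGA3 (-0.42) and ITGB4 (-0.38) down. Of 26 collagens 9 rose and 2 fell (median 0.13; 1 fell without library 1 of E79Q cells and 4 without library 2), COL1A1 and COL1A2 among the 9. COL1A1, the main chain of bone and skin collagen, had 7.29, 29.5 and 6.51 CPM in E79Q cells, against 6.26, 5.73 and 6.64 CPM in WT cells, and its call rested on library 2 of E79Q cells: without it the adjusted p was 0.561 for COL1A1 and 0.738 for COL1A2. The transmembrane collagen COL13A1 had 3.43, 5.76 and 3.51 CPM in E79Q cells, against 1.04, 1.09 and 0.681 CPM in WT cells. COL5A1, a fibrillar collagen, had 86.1, 95.04 and 94.0 CPM in E79Q cells, against 56.1, 50.4 and 51.1 CPM in WT cells, and COL12A1, a collagen of fibril surfaces, had 10.4, 10.99 and 9.17 CPM in E79Q cells, against 38.3, 34.0 and 37.8 CPM in WT cells. The first pair rose, at 2.16 (SE 0.30, adjusted p = 4.87e-06) and 0.80 (SE 0.064, adjusted p = 2.03e-10), and COL12A1 fell, at -1.85 (SE 0.12, adjusted p = 6.81e-12).

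Growth factor pathways had calls in both directions. In the EGF receptor and MAPK feedback list 9 of 30 rose and 6 fell (median 0.13). DUSP4 and DUSP6, phosphatases that ERK induces and that shut it off, had 60.6, 54.1 and 52.6 CPM in E79Q cells, against 23.7, 28.9 and 28.4 CPM in WT cells (DUSP4) and 69.2, 70.1 and 58.0 CPM in E79Q cells, against 34.9, 42.9 and 43.7 CPM in WT cells (DUSP6). AREG, amphiregulin, a ligand of the EGF receptor, had 79.1, 71.7 and 75.8 CPM in E79Q cells, against 117, 125 and 131 CPM in WT cells. The phosphatases rose by 1.05 (SE 0.080, adjusted p = 1.07e-10) and 0.70 (SE 0.078, adjusted p = 1.15e-07) and the ligand fell, at -0.72 (SE 0.058, adjusted p = 2.5e-10). EREG fell too (-0.55), ETV4 (0.66) and SPRY4 (0.53) rose, and EGFR itself did not pass (-0.15). In the insulin-like growth factor list 3 of 16 rose and 5 fell (median 0.01; 3 fell without library 1 or 3 of WT cells or library 2 of E79Q cells), with IGFBP6 (-0.64) and the insulin receptor INSR (-0.59) below their WT levels beside IGFBP3. In the TGF-beta and BMP list 6 of 32 rose and 8 fell (median 0.05; 5 fell without library 3 of WT cells or of E79Q cells). PMEPA1, a feedback inhibitor that TGF-beta induces, had 49.7, 45.4 and 43.1 CPM in E79Q cells, against 24.0, 22.1 and 26.8 CPM in WT cells, a rise of 0.92 (SE 0.074, adjusted p = 2.89e-10), and the BMP target ID1 fell (-0.35). Of 32 WNT ligands and feedback genes 1 rose (2 without library 1 of WT cells or library 3 of E79Q cells) and 4 fell (median -0.11). Of the 4, FZD6 lost its call without any 1 library other than library 2 of E79Q cells (adjusted p = 0.0584 to 0.107). Of 34 neurotrophin, semaphorin and ephrin receptors and ligands 8 rose and 14 fell (median -0.20). SEMA3B, a secreted semaphorin, had 55.5, 55.0 and 59.9 CPM in E79Q cells, against 122, 112 and 121 CPM in WT cells, and NRP1, a semaphorin and VEGF receptor, had 49.8, 48.7 and 53.1 CPM in E79Q cells, against 33.2, 36.7 and 33.9 CPM in WT cells. SEMA3B fell, at -1.06 (SE 0.065, adjusted p = 1.03e-12), and NRP1 rose, at 0.55 (SE 0.069, adjusted p = 1.07e-06).

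Genes of the amino acid response were lower in untreated E79Q cells. This response runs through the kinase GCN2 and the factor ATF4, which binds CARE elements and raises amino acid synthesis and import. Of 25 genes 16 fell and 1 rose (median -0.42). DDIT4, an inhibitor of mTORC1, had 22.3, 23.6 and 22.9 CPM in E79Q cells, against 104, 108 and 111 CPM in WT cells. GDF15, a stress cytokine, had 4.90, 5.35 and 5.49 CPM in E79Q cells, against 21.3, 22.5 and 20.3 CPM in WT cells. ATF4 RNA had 284, 272 and 302 CPM in E79Q cells, against 359.5, 400.3 and 392 CPM in WT cells. Ranges were separate and the changes were -2.23 (SE 0.091, adjusted p = 2.28e-16), -2.03 (SE 0.12, adjusted p = 4.88e-13) and -0.42 (SE 0.060, adjusted p = 6.1e-06). SESN2, a leucine sensor of the mTORC1 pathway, had 16.4, 13.1 and 16.5 CPM in E79Q cells, against 24.6, 22.98 and 23.9 CPM in WT cells, a change of -0.64 (SE 0.093, adjusted p = 9.8e-06). PHGDH, the first enzyme of serine synthesis, had 242, 201 and 229 CPM in E79Q cells, against 306, 301 and 289.9 CPM in WT cells, a change of -0.42 (SE 0.066, adjusted p = 3e-05). ATF5 was the exception, with 31.4, 25.7 and 28.7 CPM in E79Q cells, against 18.2, 17.8 and 16.6 CPM in WT cells and a rise of 0.70 (SE 0.11, adjusted p = 1.91e-05). The letters TGATGNAA of the CARE element were found in 3 of 14 promoters of the list's genes called lower (ASNS, ATF3 and CHAC1), that is 21.4%, against 2.8% of all genes called lower and 1.7% of all genes tested. These numbers are small. The list was made up of genes of the ATF4 response, so its higher share is no result about the genotypes. Of the matches 2 are shown, 5′ to 3′ on the strand of the gene with the match in capitals.
ASNS: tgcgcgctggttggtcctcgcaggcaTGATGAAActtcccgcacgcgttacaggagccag
CHAC1: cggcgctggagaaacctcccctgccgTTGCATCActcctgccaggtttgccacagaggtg
The first lies at chr7:97872443-97872502 on the minus strand and the second at chr15:40953236-40953295 on the plus strand of GRCh38.p14, where the match reads on the opposite strand. ASNS, asparagine synthetase, had 2.56, 2.70 and 1.53 CPM in E79Q cells, against 3.13, 4.24 and 3.74 CPM in WT cells, and CHAC1 had 12.6, 11.3 and 10.0 CPM in E79Q cells, against 18.4, 17.7 and 18.7 CPM in WT cells. Both fell, at -0.71 (SE 0.23, adjusted p = 0.0302) and -0.69 (SE 0.14, adjusted p = 0.000578). ASNS was picked for its match, after its values were seen.

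The unfolded protein response, which the endoplasmic reticulum sets off and which shares ATF4, had 8 of 21 lower and 0 higher (median -0.21); 5 were called lower without library 2 of WT cells. HSPA5, the chaperone BiP, had 963, 1033 and 1029 CPM in E79Q cells, against 1419, 1422 and 1404 CPM in WT cells. HERPUD1, of the degradation pathway of that organelle, had 35.8, 32.6 and 32.5 CPM in E79Q cells, against 49.0, 56.2 and 52.5 CPM in WT cells, and XBP1 had 45.9, 45.1 and 48.1 CPM in E79Q cells, against 68.4, 73.1 and 63.5 CPM in WT cells. Log2 fold changes were -0.49 (SE 0.042, adjusted p = 7.69e-10), -0.64 (SE 0.072, adjusted p = 1.34e-07) and -0.56 (SE 0.082, adjusted p = 1.02e-05). Amino acid transporters had 5 of 22 higher and 7 lower (median -0.15): SLC7A5, which imports leucine, had 3489, 3264 and 3298 CPM in E79Q cells, against 4332, 4123 and 4199 CPM in WT cells, a change of -0.33 (SE 0.047, adjusted p = 5.8e-06), while SLC38A5 rose (0.43). Aminoacyl-tRNA synthetases had 5 of 20 higher (3 without library 3 of WT cells or library 1 of E79Q cells) and 6 lower (median -0.05), AARS (-0.31), CARS (-0.38), WARS (-0.27) and GARS (-0.20) among those that fell and HARS (0.23) and KARS (0.21) among those that rose. In the list of hypoxia-induced and glycolytic genes 14 of 37 fell and 3 rose (median -0.14). NDRG1 had 28.1, 26.7 and 30.7 CPM in E79Q cells, against 81.0, 77.9 and 79.4 CPM in WT cells. BNIP3L, a receptor for the removal of mitochondria, had 22.3, 22.98 and 24.1 CPM in E79Q cells, against 45.3, 50.4 and 48.0 CPM in WT cells, and VEGFA, the vascular growth factor, had 87.5, 78.5 and 78.5 CPM in E79Q cells, against 120.3, 117 and 124 CPM in WT cells. They fell, at -1.48 (SE 0.084, adjusted p = 3.06e-13), -1.05 (SE 0.13, adjusted p = 5.36e-07) and -0.56 (SE 0.059, adjusted p = 3.75e-08), while the abundant glycolytic genes GAPDH (0.13), ENO1 (0.06) and PKM (0.06) did not pass.

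Genes of lipid synthesis were mostly lower or not called. Of 27 cholesterol genes 13 fell and 0 rose (median -0.25). SREBF1, the factor of fatty acid and sterol synthesis, had 138, 132 and 134 CPM in E79Q cells, against 244, 233 and 228 CPM in WT cells. SREBF2, its sterol-directed relative, had 176, 163 and 164 CPM in E79Q cells, against 235, 224 and 243 CPM in WT cells, and STARD4, a cholesterol carrier, had 23.1, 23.5 and 21.9 CPM in E79Q cells, against 46.0, 42.5 and 43.1 CPM in WT cells. Each lay below the WT range, with changes of -0.80 (SE 0.059, adjusted p = 5.4e-11), -0.48 (SE 0.065, adjusted p = 3.19e-06) and -0.94 (SE 0.098, adjusted p = 3.78e-08). Of 32 fatty acid genes 12 fell and 4 rose (median -0.15). SCD, the desaturase that makes monounsaturated fatty acids, had 553, 574 and 592 CPM in E79Q cells, against 1303, 1287 and 1304 CPM in WT cells. ABCA1, which exports cholesterol, had 19.8, 24.1 and 22.6 CPM in E79Q cells, against 48.3, 48.2 and 49.9 CPM in WT cells, and FASN, fatty acid synthase, had 1681, 1575 and 1564 CPM in E79Q cells, against 2035, 1880 and 2016 CPM in WT cells. The changes were -1.18 (SE 0.045, adjusted p = 4.69e-17), -1.14 (SE 0.10, adjusted p = 2.78e-09) and -0.30 (SE 0.054, adjusted p = 0.000161), and FABP5 (0.33) and PPARG (0.49) rose. Of 29 genes of glutamine use and the citric acid cycle 3 rose and 2 fell (median 0.06). PC, pyruvate carboxylase, had 40.6, 36.3 and 37.4 CPM in E79Q cells, against 62.8, 64.9 and 59.4 CPM in WT cells, a change of -0.71 (SE 0.073, adjusted p = 2.68e-08). Of the 13 genes encoded by mitochondrial DNA 6 were called lower (median -0.25), and MT-CYB, the cytochrome b of complex III, was the 1 with separate ranges. It had 952, 1266 and 1236 CPM in E79Q cells, against 1395, 1537 and 1631 CPM in WT cells, a change of -0.40 (SE 0.092, adjusted p = 0.00207). This list moves with library 1 of E79Q cells, whose share of mitochondrial counts was the lowest of the 6, and 2 of the 13 were called lower without it or without library 3 of WT cells, against 10 without library 3 of E79Q cells.

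Most lists of innate immune genes had calls in both directions. Leukocyte markers, low in all 6 libraries as given above, had a lower sum in E79Q cells that came mostly from CD14. CD68 had 5, 5 and 2 reads in E79Q cells, against 2, 5 and 2 reads in WT cells. The part of leukocytes in these results was not tested, and PTPRC, the defining leukocyte marker, had no read. Of 16 Toll-like and interleukin-1 receptor genes 5 rose, TLR4 among them, and 3 fell (median -0.02; 3 rose without library 3 of WT cells or library 1 or 3 of E79Q cells), with IL1RL1, the interleukin-33 receptor, at 29.8, 28.1 and 31.5 CPM in E79Q cells, against 12.9, 15.7 and 15.4 CPM in WT cells, and IL1RAP, the shared receptor chain, at 47.0, 46.1 and 46.4 CPM in E79Q cells, against 79.5, 80.4 and 88.2 CPM in WT cells. IL1RL1 rose, at 1.02 (SE 0.091, adjusted p = 1.75e-09), and IL1RAP fell, at -0.83 (SE 0.068, adjusted p = 3.46e-10). Of 6 tested chemokines 2 rose and 1 fell (median 0.30). CXCL8, which draws neutrophils, had 16.1, 15.7 and 15.8 CPM in E79Q cells, against 8.74, 9.57 and 8.11 CPM in WT cells, and CXCL1, with the same role, had 41.0, 33.1 and 31.1 CPM in E79Q cells, against 22.9, 25.5 and 26.4 CPM in WT cells. Their rises were 0.85 (SE 0.090, adjusted p = 5.58e-08) and 0.49 (SE 0.10, adjusted p = 0.00087), and CXCL16 fell (-0.82). Of 21 colony-stimulating factors and interleukins 4 rose and 3 fell (median -0.11; 1 fell without library 3 of WT cells or library 1 of E79Q cells): CSF2, or GM-CSF, had 5.50, 2.94 and 4.08 CPM in E79Q cells, against 1.92, 1.60 and 1.70 CPM in WT cells, and CSF1, the macrophage growth factor, had 16.6, 14.5 and 12.8 CPM in E79Q cells, against 22.5, 18.4 and 19.2 CPM in WT cells. CSF2 rose, at 1.26 (SE 0.23, adjusted p = 0.000229), and CSF1 fell, at -0.45 (SE 0.11, adjusted p = 0.00343). Of 31 interferon-stimulated genes 9 fell and 0 rose (median -0.39). IRF1 had 26.4, 24.1 and 22.7 CPM in E79Q cells, against 40.8, 39.6 and 40.5 CPM in WT cells, a change of -0.72 (SE 0.088, adjusted p = 5.39e-07). Of 27 genes of antigen presentation and checkpoints 9 fell and 1 rose (median -0.20; 4 or 5 fell without library 1 or 3 of WT cells or library 2 or 3 of E79Q cells). NT5E, the adenosine-making surface enzyme CD73, had 192, 205 and 209 CPM in E79Q cells, against 115, 125 and 120.1 CPM in WT cells, a rise of 0.75 (SE 0.065, adjusted p = 9.3e-10), and CD274, which encodes PD-L1, had 11.5, 12.8 and 10.7 CPM in E79Q cells, against 10.0, 7.74 and 10.2 CPM in WT cells and did not pass (0.32, adjusted p = 0.0737). Among 11 complement genes 2 rose (1 without library 3 of WT cells or library 1 of E79Q cells) and 4 fell (median -0.20), with C3 at 20.7, 24.3 and 23.8 CPM in E79Q cells, against 46.2, 44.9 and 45.7 CPM in WT cells, a change of -0.99 (SE 0.069, adjusted p = 1.88e-11), and C1S down as well (-1.02). In the NF-kB list 2 of 18 rose (0 without library 3 of WT cells, and 1 without library 1 or 2 of WT cells or library 1 or 3 of E79Q cells) and 2 fell (median 0.10), TNFAIP2, a target of TNF, at -1.26 (SE 0.061, adjusted p = 1.16e-14). CD14, the co-receptor of TLR4 and the 1 tested leukocyte marker, had 1.09, 1.47 and 0.396 CPM in E79Q cells, against 2.97, 3.55 and 2.95 CPM in WT cells, a change of -1.68.

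Some proliferation genes rose by small steps. Of 30 mitotic genes 11 rose and 0 fell (median 0.13), PLK1 with 185, 168 and 168 CPM in E79Q cells, against 132, 142 and 134 CPM in WT cells and a rise of 0.35 (SE 0.063, adjusted p = 0.000149), while the marker MKI67 did not pass (0.09). Of 32 replication and G1/S genes 7 rose and 3 fell (median 0.11). CCND1, cyclin D1, had 1035, 1001 and 990.3 CPM in E79Q cells, against 694, 699.8 and 710.0 CPM in WT cells, and CCND2, cyclin D2, had 24.5, 27.3 and 25.4 CPM in E79Q cells, against 41.7, 44.8 and 42.5 CPM in WT cells. They moved apart, at 0.53 (SE 0.037, adjusted p = 2.55e-11) and -0.74 (SE 0.076, adjusted p = 2.66e-08). Of 32 p53 targets and cell cycle inhibitors 11 fell (7 without library 3 of E79Q cells) and 4 rose (median -0.09). CDKN1A, the inhibitor p21, had 44.4, 36.4 and 33.9 CPM in E79Q cells, against 58.1, 55.1 and 54.4 CPM in WT cells, and BBC3, the death factor PUMA, had 1.74, 2.29 and 1.87 CPM in E79Q cells, against 5.28, 5.39 and 4.94 CPM in WT cells. Both fell, at -0.55 (SE 0.085, adjusted p = 2.53e-05) and -1.40 (SE 0.18, adjusted p = 1.7e-06), and MDM2 did not pass (-0.04). In the BCL2 family 2 of 18 rose (1 without library 1 of WT cells or of E79Q cells) and 3 fell (median -0.07), and the death factor HRK had 2, 1 and 0 reads in E79Q cells, against 13, 18 and 7 reads in WT cells. Of 23 AP-1 and immediate early genes 5 rose and 5 fell (median 0.16; 3 fell without library 2 of WT cells). FOSL1 had 325, 286 and 279 CPM in E79Q cells, against 141, 163 and 156 CPM in WT cells. JUN had 145, 139 and 141 CPM in E79Q cells, against 99.4, 106 and 108 CPM in WT cells, JUNB had 92.0, 88.5 and 93.7 CPM in E79Q cells, against 149, 136 and 138 CPM in WT cells, and JUND had 25.6, 20.9 and 22.8 CPM in E79Q cells, against 63.4, 56.8 and 54.1 CPM in WT cells. FOSL1 and JUN rose, at 0.95 (SE 0.061, adjusted p = 3.86e-12) and 0.44 (SE 0.060, adjusted p = 4.14e-06), while JUNB and JUND fell, at -0.62 (SE 0.068, adjusted p = 7.46e-08) and -1.33 (SE 0.10, adjusted p = 1.01e-10). Letters of an AP-1 site, TGANTCA, were in 7.2% of the promoters of genes called higher, 5.2% of those called lower and 4.9% of those tested.

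Part of the protein quality control genes rose by small steps. Of 37 proteasome subunits 12 rose and 1 fell (median 0.16). PSMD2, a subunit of the 19S cap, had 1180, 1086 and 1096 CPM in E79Q cells, against 881, 892 and 869 CPM in WT cells, a rise of 0.35 (SE 0.055, adjusted p = 2.84e-05), and the fall was that of the immunoproteasome subunit PSMB9 (-0.64). Without library 1 of E79Q cells 7 of the list were called higher and 2 lower. Of 18 heat shock genes 6 rose and 2 fell (median 0.13; 1 fell without any 1 of the 6 libraries), HSPA8 up, at 0.32 (SE 0.039, adjusted p = 4.84e-07), and HSPB1 down, at -0.52 (SE 0.070, adjusted p = 2.59e-06). Of 5 metallothioneins, cysteine-rich metal binders, 3 rose and 0 fell (median 0.34), MT2A with 3405, 3029 and 3006 CPM in E79Q cells, against 2124, 2191 and 2216 CPM in WT cells, a rise of 0.53 (SE 0.074, adjusted p = 5.03e-06). Of 28 lysosome and autophagy genes 6 rose and 5 fell (median 0.04). CTSS, cathepsin S, rose (0.90), and TFEB, the factor that sets lysosome genes, had 4.90, 4.53 and 5.26 CPM in E79Q cells, against 10.8, 9.97 and 8.57 CPM in WT cells, a change of -0.996 (SE 0.15, adjusted p = 1.11e-05).

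Among long noncoding RNAs H19, an imprinted RNA and precursor of a microRNA, fell, with 459, 465 and 451 CPM in E79Q cells, against 1976, 1954 and 1750 CPM in WT cells. It was 4.13-fold lower in E79Q cells without overlap, at -2.05 (SE 0.065, adjusted p = 1.19e-18) on the log2 scale, and lies on chromosome 11 at 1995176 to 2001470 on GRCh38. MIR210HG, the host of a hypoxia-induced microRNA, had 0.272, 0.235 and 0.509 CPM in E79Q cells, against 1.59, 2.64 and 2.27 CPM in WT cells, a change of -2.65 (SE 0.51, adjusted p = 0.000355). MANCR, a noncoding RNA of the mitotic period, had 8.38, 8.35 and 8.55 CPM in E79Q cells, against 3.08, 1.83 and 3.12 CPM in WT cells, and LUCAT1 had 6.31, 8.40 and 6.28 CPM in E79Q cells, against 3.30, 2.005 and 1.81 CPM in WT cells. Both rose, by 1.65 (SE 0.16, adjusted p = 1.07e-08) and 1.55 (SE 0.22, adjusted p = 7.17e-06). The median log2 fold change of a chromosome ran from -0.034 on chromosome 22 to 0.024 on chromosome X. The lowest was -0.07 on chromosome 22 without library 1 of E79Q cells, -0.053 on chromosome 22 without library 3 of WT cells and -0.02 on chromosome 8 without library 1 of WT cells. Scaled by library totals the limits were -0.055 on chromosome 22 and 0.003 on chromosome X, and with a GC and length trend removed -0.012 on chromosome 22 and 0.041 on chromosome 16. No order of chromosomes is read from these values. With all libraries and TMM, the 5th and 95th percentiles over runs of 25 neighbouring genes were -0.15 and 0.10. The run with the largest median spans chromosome 11 at 1469457 to 3166739, from MOB2 to OSBPL5, and includes H19 (median -0.47, 7 lower and 2 higher). OSBPL5, a lipid transfer protein, fell (-0.69), MOB2 did not pass (-0.21), and the largest called changes in that run were those of H19 and of LSP1, an actin-binding protein, at -1.96 (SE 0.56, adjusted p = 0.0122). These 3 were picked for their place, after their values were seen. In the other treatments the run's median was -0.20 after radiation, -0.00 after CB-839 and -0.01 after both. Of 393 zinc finger genes 15 rose and 16 fell (median 0.01; 7 or 8 either way without library 1 of E79Q cells), of 31 HOX genes 1 rose (0 without any 1 of the 6 libraries) and 3 fell (median 0.00) and of 17 protocadherins 1 rose and 2 fell (median -0.05; 1 fell without any 1 library other than library 2 of E79Q cells).

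Whether these genotype differences hold under treatment was asked in separate libraries. Over all 15956 genes tested, the genotypes differed in 1538 genes after radiation, in 2396 after CB-839 and in 1159 after both. Of the 3149 genes called in untreated cells 2906 had the same sign after radiation, 1869 after CB-839 and 1948 after both. Signs also agree by chance, and their agreement over all genes tested was not counted, so these numbers alone do not show that differences persist. Of the same 3149, 1102 were also called in the same direction after radiation, 774 after CB-839 and 473 after both, and 9, 339 and 136 were called in the opposite direction. Called in the same direction in all 4 treatments were 366 genes, 207 higher and 159 lower. The difference itself was tested: the untreated genotype effect differed from that after radiation in 201 genes (1.26% of those tested), from that after CB-839 in 2280 (14.3%) and from that after both in 1664 (10.4%). These 3 tests share the untreated libraries, so their results are not independent of each other. The 1664 became 1946 or 2394 without library 1 or 2 of E79Q cells given both treatments.

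Several of the leading genes kept their direction in every treatment. The log2 fold change of AKR1C1 was 2.89 untreated, 3.47 after radiation, 2.25 after CB-839 and 2.10 after both. That of H19 was -2.05, -1.85, -2.12 and -1.30 in the same order, and that of IGFBP3 -3.60, -2.39, -1.84 and -1.24. MMP1 stood at 1.94, 1.16, 1.15 and 0.77, a smaller rise under each treatment by the test of the difference (untreated minus radiation 0.79 (SE 0.075, adjusted p = 3.35e-07)). PRSS23 did not keep its rise: it stood at 0.85, 0.19, 0.06 and -0.05 in that order. Its untreated effect differed from that after CB-839 by 0.79 (SE 0.056, adjusted p = 1.11e-10).

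Other genes lost or turned their difference. DDIT4 was -2.23 untreated, -1.01 after radiation, 0.12 after CB-839 and 0.12 after both, and the untreated effect differed from that after CB-839, at -2.35 (SE 0.13, adjusted p = 2.25e-12). NDRG1 was -1.48 untreated and 0.01 after radiation, a difference of -1.49 (SE 0.12, adjusted p = 1.07e-08). PSAT1, an enzyme of serine synthesis, was -0.28 untreated and 1.15 after CB-839, a difference of -1.43 (SE 0.069, adjusted p = 1.19e-13). In the ATF4 list as a whole 23 of 25 genes differed between untreated cells and cells given CB-839, and 8 of 25 between untreated and irradiated cells, with a median of -0.42 untreated, -0.03 after radiation, 0.75 after CB-839 and 0.40 after both. In the unfolded protein response list 17 of 21 differed from the effect under CB-839. GCLM, which did not pass in untreated cells, was at 0.73 after radiation, a difference of -0.66 (SE 0.073, adjusted p = 2.92e-06). Among kallikreins 1 of 7 differed from the effect after radiation, 2 from that after CB-839 and 4 from that after both, and the log2 fold change of all 7 was below 0 in each treatment. Aldo-keto reductases had medians of 1.87, 0.98 and 0.94 after radiation, CB-839 and both, and 1, 2 and 2 of the 7 differed.

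**Figure D4:**
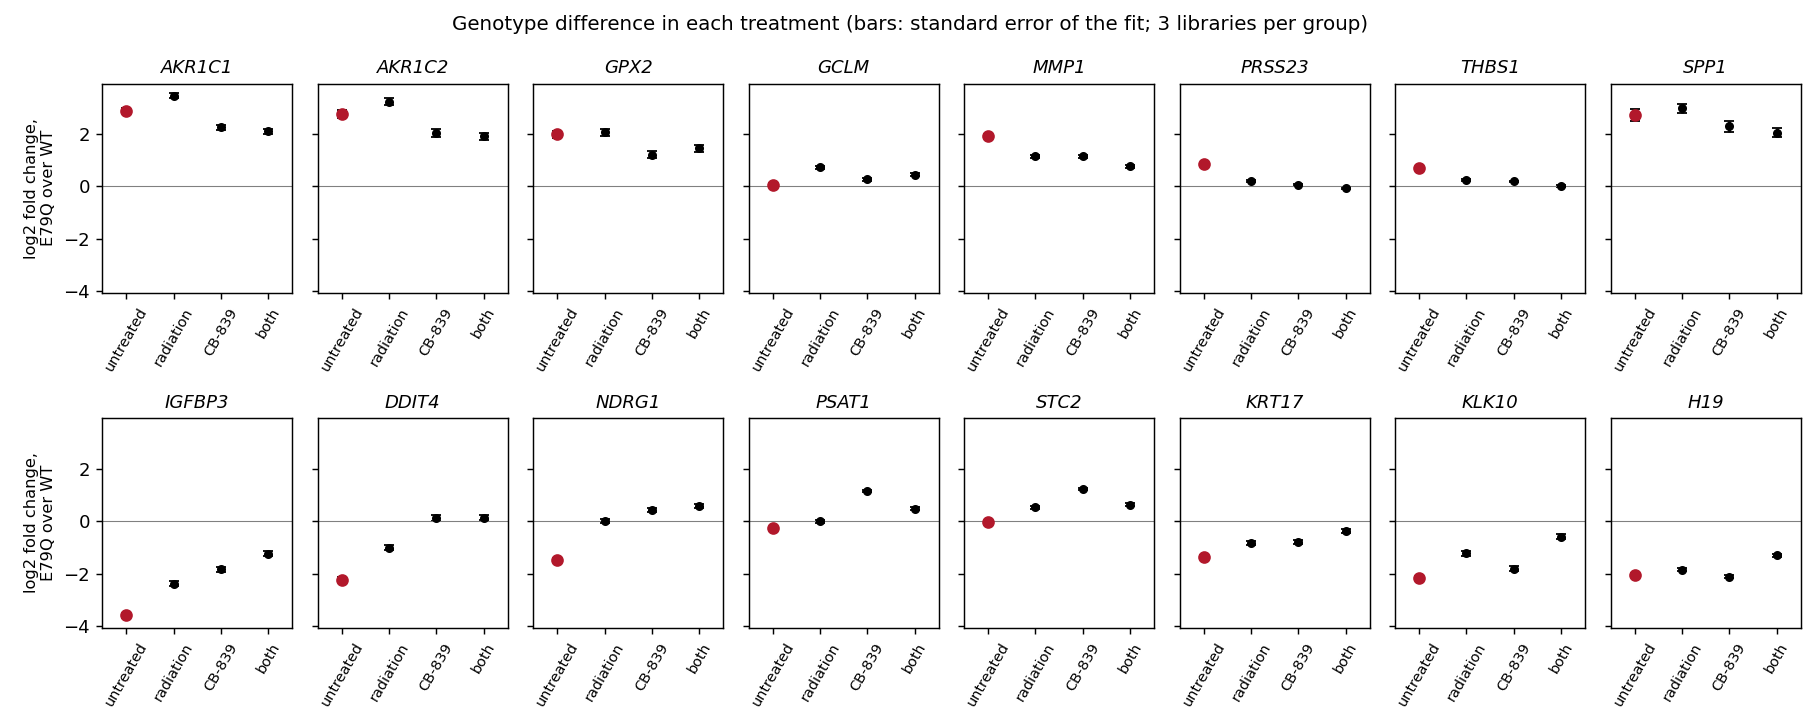
Log2 fold change of E79Q over WT (vertical) for 16 genes in untreated cells (red) and after radiation, CB-839 and both (black), with the standard error of the fit, each from 3 against 3 libraries. AKR1C1, AKR1C2, SPP1 and H19 keep their side of 0 in each treatment, while DDIT4 and NDRG1 lie below 0 in untreated cells and above 0 in cells given CB-839.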

How the data were processed

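RNA of SAS cells was sequenced by the authors, with library preparation by Novogene on Illumina instruments, per the labels. The deposited table holds raw counts of reads per Ensembl gene and a gene length in base pairs (unit "other"). The length was not used for the main tests, but it entered the alternatives with a GC and length trend removed. The submitters' processing notes name STAR, HTSeq and GRCh38 with no version, so alignment and counting settings, the strand setting among them, are not stated there. All 58735 gene IDs were found in GENCODE 29, of which 58724 had the same start and end. Columns were matched to samples by the name in the sample's description for 21 of 24, and by title for the 3 E79Q columns of radiation with CB-839, whose names begin with Mu and not Mut, so that this match is less certain and with it the values after both treatments.

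Counts were analysed with edgeR 4.0.16 in R 4.3.3: filterByExpr over the 8 groups kept 15956 of the 34983 genes with a read, library sizes were scaled by TMM, and 1 mean per group was fitted over all 24 libraries (16 residual degrees of freedom). The quasi-likelihood test compared E79Q with WT in untreated cells and, as 3 interaction terms, that difference with those in the other treatments. P-values were adjusted by Benjamini-Hochberg over all genes tested. The biological coefficient of variation was 7.19%. SE is the log2 fold change divided by the square root of F. CPM scale the deposited counts to TMM-scaled library sizes, TPM also divide them by the deposited gene length, and the SD is over 3 libraries. Exact intervals for ratios of reads cover counting error only. The procedure was tested on simulated data.

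Named genes were the 15 largest rises and falls and the 10 smallest p in each direction among protein-coding genes of at least 2 CPM in a group and no overlap, all members of lists of up to 15 genes, the 4 smallest p in each direction and 3 highest levels of longer lists, the 5 smallest p in each direction of each interaction, and the 3 leading long noncoding RNAs each way. Exceptions are stated, and some named genes are not reported here. The comparison, the lists and the rules were chosen with earlier results of these data known. The alternatives were DESeq2 1.42.0, limma-voom (limma 3.58.1), other scalings and filters, a GC and length trend removed, a replicate block, a 1.5-fold threshold test, smaller sets of libraries and leaving out each library. Over all genes, samples with the same replicate number did not deviate together (r 0.002, 0.015 and 0.011), so the numbers were not taken as pairs. Their GC trends did have the same sign by number in both genotypes, and the replicate block was run as an alternative. Promoter sequences are those of RefSeq on GRCh38.p14.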

Additional observations from a re-analysis of the deposited data

Results flagged for a closer look

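Of the 15956 genes tested, the genotype difference (E79Q minus WT) of untreated cells differed from that of irradiated cells in 201 genes, from that of cells given CB-839 in 2280 and from that of cells given both in 1664. These come from a test of the difference itself, an interaction term in edgeR's quasi-likelihood fit at an adjusted p under 0.05, and the 3 tests share the untreated libraries. The values below are untreated minus treated on the log2 scale, for the 5 genes of the smallest p in each direction of each test.

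Set against irradiated cells, the difference was 0.66 for PRSS23, 0.79 for MMP1, 0.88 for EGR1, an immediate early factor, 0.42 for THBS1 and 0.83 for LPXN. It was -1.49 for NDRG1, -1.21 for ACKR3, a scavenger receptor for chemokines, -1.22 for DDIT4, -0.66 for GCLM and -1.78 for F2RL2, the receptor PAR3.

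Set against cells given CB-839, the difference was 0.79 for PRSS23, 0.50 for HSP90AB1, a constitutive chaperone, 0.80 for MMP1, 0.58 for HSPA8 and 1.13 for DNER, a ligand of Notch. It was -1.43 for PSAT1, -1.27 for STC2, a secreted target of ATF4, -2.35 for DDIT4, -0.99 for HSPA5 and -1.42 for CLIC4, an intracellular chloride channel protein.

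Set against cells given radiation with CB-839, the difference was 0.90 for PRSS23, 1.18 for MMP1, 1.32 for CTGF, 0.66 for THBS1 and 1.16 for APLN, the peptide apelin. It was -2.35 for DDIT4, -2.06 for NDRG1, -2.36 for IGFBP3, -1.29 for C3 and -2.19 for GDF15.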

How the results depend on the processing

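The 3149 genes called in untreated cells were 3201 with DESeq2, 3091 with limma-voom, 2965 to 3203 under other scalings, 2806 without a filter, 3153 with a filter of 1 CPM in 12 libraries, 3924 with the 6 libraries alone, and 2346 to 2576 without 1 library. The replicate block gave 2975 with all libraries and 4309 with the 6 libraries alone. Removing a GC and length trend gave 4417 calls (4345 with the replicate block), with 2510 higher (2474 with the replicate block). Against a 1.5-fold change 293 genes were called, 113 higher and 180 lower. The 201 interactions with radiation were 319 with DESeq2, 572 after removing the trend (528 with the replicate block), 5 against a 1.5-fold change and 107 to 144 without 1 library. For CB-839 the 2280 became 3666 after removing the trend (3583 with the replicate block), 123 against a 1.5-fold change and 1797 to 2115 without 1 library. For both treatments the 1664 became 2935 after removing the trend (2853 with the replicate block) and 83 against a 1.5-fold change. Without 1 library it became 1299 to 2394. The 2 largest of these counts, 1946 and 2394, came without library 1 or 2 of E79Q cells given both treatments. The cause was not tested.

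Of 530 named genes 385 were called and 0 reversed. Apart from the 1.5-fold test, 330 kept their call in every setting that tested them. Of the called genes 23 lost it in another setting, and 55 on leaving out 1 library. A gene that a setting filtered out or gave no adjusted p was not counted as lost there. This applies to cornified envelope genes under the filter of 1 CPM in 12 libraries, so 330 is an upper limit. The 1.5-fold test did not call 276 of the 385.

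Genes with few reads, such as the serpins, have wide intervals. The design has 3 libraries per group, and nothing in the labels shows separate cultures or clones. Counts per gene do not separate paralogs, overlapping genes or alleles.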
